A study of Mus musculus with 6 samples.

Results

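Endothelial transcripts were followed in isolated heart cells. They comprise 31 genes taken as markers of the cells lining blood and lymph vessels, out of 18193 genes measured. Of the 31, 8 were listed as also expressed by other heart cells (Fabp4, Cav1, Eng, Lyve1, Tal1, Rgcc, Aplnr and Vwf). All 31 listed genes had a probe set named to them alone, and each gene is given by its brightest probe set. The 6 arrays fall into 3 groups of 2: cardiomyocytes from adult hearts at 8 weeks (adult CM), cardiomyocytes from hearts at postnatal day 1 (neonatal CM) and cardiac fibroblasts from day 1 hearts (neonatal CF). All mice were C57BL/6J with no allele or treatment given. Adult CM were taken from male mice by Langendorff perfusion, which feeds enzymes into the coronary vessels through the aorta. Day 1 mice were male and female, and their cells were sorted by density on Percoll. Sex, age and isolation therefore change together between adult and neonatal cells, and cannot be told apart. The labels also describe growth of dissociated cells on a dish and a check for leftover cardiomyocytes with the mitochondrial dye TMRM. Whether arrays of one group stem from separate litters or preparations is not stated, so a p-value here covers only the spread from array to array, and that spread may be technical.

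Endothelial cells form the inner wall of every vessel and of the heart chambers, and capillaries run beside nearly every cardiomyocyte. They are held together by VE-cadherin and tight junction proteins, and are kept alive and patterned by VEGF, angiopoietin and apelin receptors. ETS and SOX transcription factors set their identity, and in the heart their capillaries take up fatty acids for the muscle. No group here was a purified endothelial preparation, so the transcripts report what endothelial RNA, or RNA of other cells that use these genes, came along with each preparation. In such bulk samples fewer endothelial cells and less RNA per endothelial cell cannot be told apart.

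Values are log2 RMA values, in which 1 unit is a 2-fold change, and ± is the SD over n = 2 arrays unless SE is named. On both neonatal replicate 1 arrays the title gives the opposite cell type from the source name, and the source name was followed. The median of 12 cardiomyocyte markers was 14.14 and 14.04 on the adult CM arrays, 14.02 and 13.54 on the neonatal CM arrays, and 7.52 and 10.78 on the neonatal CF arrays (replicates 1 and 2 in this order throughout). The median of 12 fibroblast markers was 7.80 and 9.40 in adult CM, 9.38 and 9.43 in neonatal CM, and 12.56 and 11.86 in neonatal CF. The array grouped as neonatal CM replicate 1 was thus high in muscle genes, while neonatal CF replicate 2 held more cardiomyocyte signal than CF replicate 1. The median of the 31 endothelial transcripts was 8.35 and 9.52 in adult CM, 8.45 and 7.68 in neonatal CM, and 5.45 and 6.67 in neonatal CF. Over all 18193 genes the array medians lay between 6.46 and 6.67.

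**Figure D1:**
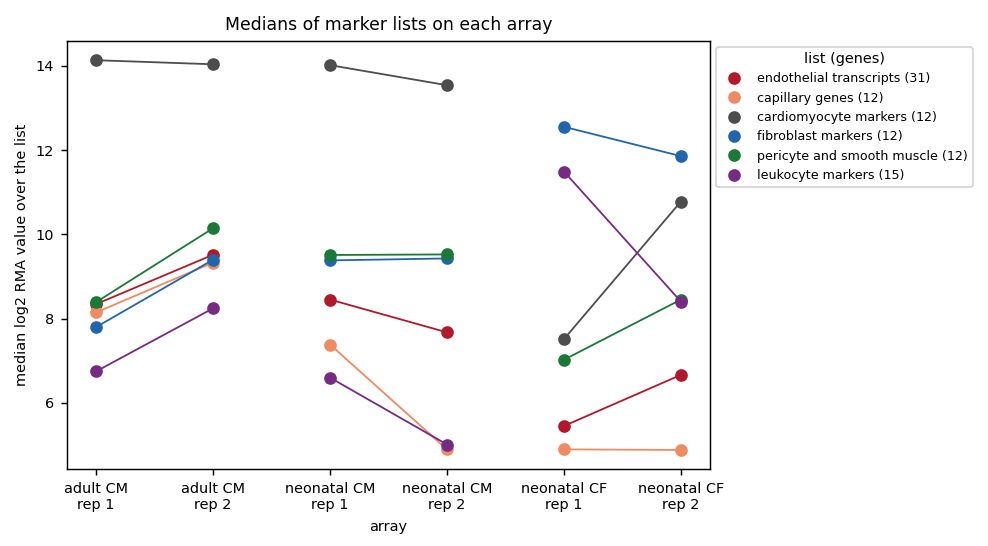
Median log2 RMA value of each marker list (vertical axis) on each of the 6 arrays (horizontal axis), with a line joining the 2 arrays of a group and the number of genes in the legend. The endothelial median was 8.35 and 9.52 in adult CM, 8.45 and 7.68 in neonatal CM, and 5.45 and 6.67 in neonatal CF, while the capillary median of neonatal CM was 7.39 on replicate 1 and 4.90 on replicate 2.

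The transcripts did not follow one common profile. Adult CM replicate 2 was the highest array for 19 of the 31 genes and neonatal CF replicate 1 the lowest for 22. Neonatal CM replicate 1 was the highest for 5 genes and replicate 2 for 4. The 4 that peaked on neonatal CM replicate 2 were Emcn, Plvap, Ecscr and Tal1.

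**Figure D2:**
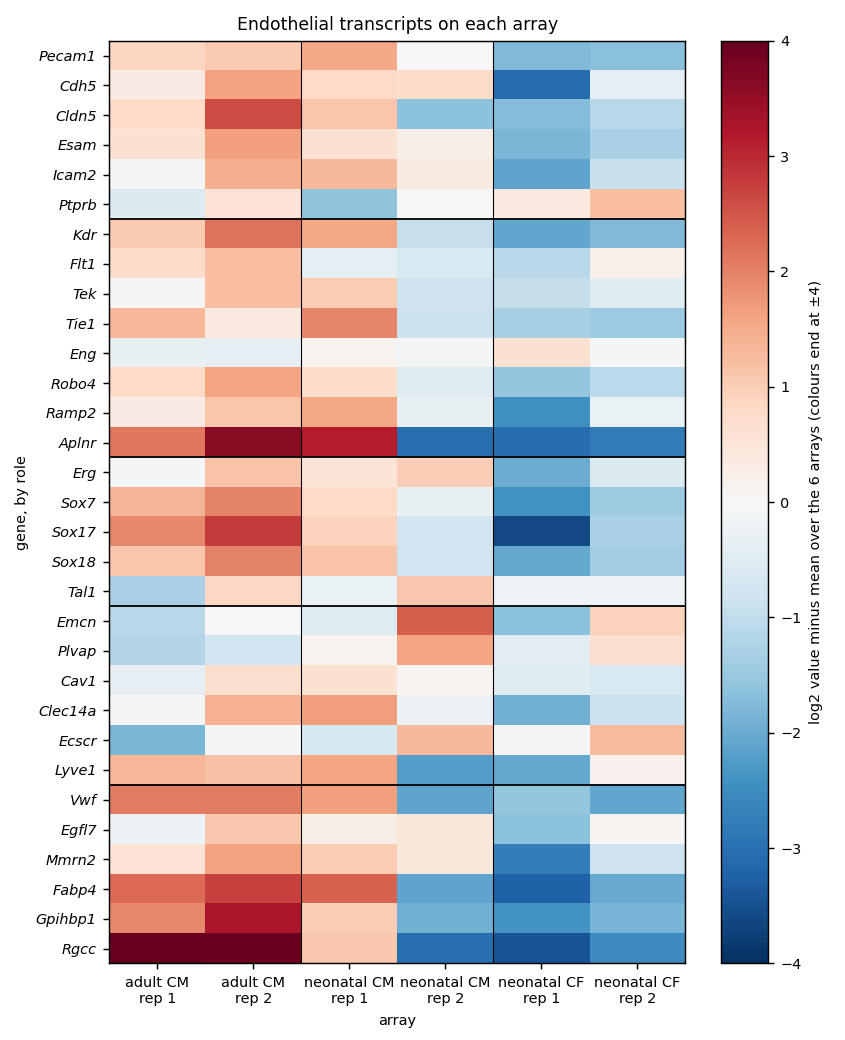
Heat map of the 31 endothelial transcripts (rows, grouped by role with black lines between junction genes, receptors, transcription factors, surface proteins, and secreted or lipid-handling proteins) on the 6 arrays (columns). Colour is the log2 value minus the gene's mean over the 6 arrays. Adult CM replicate 2 was highest for 19 genes and neonatal CF replicate 1 lowest for 22, and the neonatal CM arrays differed most in Aplnr, at 9.78 and 3.64.

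Adult cardiomyocyte preparations and neonatal fibroblasts were compared first, the pair with the highest median difference. In adult CM 10 endothelial transcripts rose and 0 fell, and 25 of the 31 had a higher mean. Over all genes tested, 10.1% rose and 11.0% fell in this comparison (21.0% in all), and 56.0% had a higher mean. At an unadjusted p under 0.05 stood 18 of the 31, against 37.0% of all genes. The median difference of the 31 was 2.25, against 0.09 over all genes. The 10 were the junction genes Pecam1 and Esam, the receptors Kdr and Robo4, the transcription factors Sox7, Sox17 and Sox18, the matrix protein gene Mmrn2, and Gpihbp1 and Rgcc. The arrays of the groups did not overlap for 24 genes that were higher in adult CM, where 37.8% of all genes did the same, and for 3 that were lower (Eng, Plvap and Ecscr), against 30.2% of all genes.

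**Figure D3:**
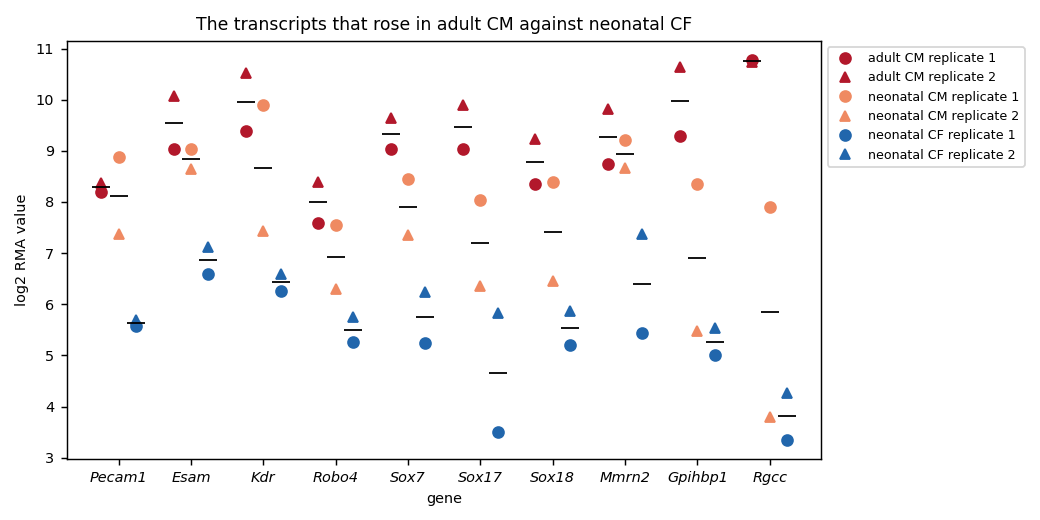
Log2 RMA values (vertical axis) of the 10 transcripts that rose in adult CM against neonatal CF, with circles for replicate 1, triangles for replicate 2 and a black dash for each group's mean. Both adult CM arrays lay above both neonatal CF arrays for each of the 10, and the neonatal CM arrays lay apart for Rgcc, at 7.90 and 3.79.

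Among 6 junction and adhesion genes, Pecam1, an adhesion molecule at contacts between endothelial cells, measured 8.19 and 8.38 in adult CM and 5.57 and 5.69 in neonatal CF. It rose 6.31-fold (log2 difference 2.66 ± 0.50 SE, adjusted p = 0.0235). Esam, an immunoglobulin-type adhesion protein of the same contacts, measured 9.03 and 10.07 in adult CM and 6.59 and 7.12 in neonatal CF, and rose 6.46-fold (adjusted p = 0.0153). Both pairs were well apart. Cdh5, which encodes VE-cadherin, measured 8.22 and 9.48 in adult CM and 4.81 and 7.48 in neonatal CF. Its difference of 2.70 ± 0.93 (SE) had an adjusted p of 0.101, with 2.67 between the CF arrays themselves. Cldn5, the endothelial tight junction claudin, measured 7.67 and 9.47 in adult CM against 5.12 and 5.76 in neonatal CF (adjusted p = 0.0973), and Icam2, a leukocyte adhesion ligand, 7.63 and 9.13 in adult CM against 5.60 and 6.83 in neonatal CF (0.0845). Ptprb, the phosphatase VE-PTP that acts on VE-cadherin and the angiopoietin receptor, pointed the other way, at 9.69 and 10.79 in adult CM and 10.61 and 11.43 in neonatal CF, and these groups overlapped.

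Among 8 receptors, Kdr, the main signalling receptor for VEGF, measured 9.39 and 10.52 in adult CM and 6.26 and 6.60 in neonatal CF, and rose 11.5-fold (adjusted p = 0.0450). Robo4, an endothelial roundabout receptor that steadies vessels, measured 7.59 and 8.39 in adult CM and 5.25 and 5.74 in neonatal CF, and rose 5.63-fold (adjusted p = 0.0292). Aplnr, the apelin receptor, had the widest gap of the receptors on the brightest probe sets. It measured 8.77 and 10.25 in adult CM against 3.60 and 3.85 in neonatal CF. Its difference was 5.79 ± 1.97 (SE) with an adjusted p of 0.0988 in limma. The spread shared by the 3 groups includes 9.78 and 3.64 on the neonatal CM arrays. On the other Aplnr probe set the difference was 1.33, at 6.14 and 7.07 in adult CM against 5.24 and 5.31 in neonatal CF. Flt1, a VEGF receptor that acts largely as a decoy, measured 9.27 and 9.73 in adult CM against 7.41 and 8.73 in neonatal CF (adjusted p = 0.0900). Tek, the angiopoietin receptor, and its partner Tie1 had differences of 1.35 and 2.25 (adjusted p = 0.233 and 0.151), and Ramp2, a part of the adrenomedullin receptor, 2.09 (0.177). Eng, a co-receptor for TGF beta family ligands that fibroblasts also make, measured 9.58 and 9.52 in adult CM and 10.47 and 9.78 in neonatal CF, a difference of −0.57 with a 95% interval of −1.26 to 0.12.

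The promoters of 3 receptors are shown because 2 of them, Kdr and Robo4, rose in this comparison and the third, Eng, did not. They were chosen after their values were seen. Each is the RefSeq window on GRCm38.p6 from 250 bases before to 50 bases after the gene's start, 5′ to 3′ on the gene's strand, with CCGGAA, a longer form of the sites that ETS factors bind, in capitals on either strand. Kdr lies on the minus strand at chr5:75978406-75978705, Robo4 on the plus strand at chr9:37401722-37402021 and Eng on the plus strand at chr2:32646345-32646644.
Kdr: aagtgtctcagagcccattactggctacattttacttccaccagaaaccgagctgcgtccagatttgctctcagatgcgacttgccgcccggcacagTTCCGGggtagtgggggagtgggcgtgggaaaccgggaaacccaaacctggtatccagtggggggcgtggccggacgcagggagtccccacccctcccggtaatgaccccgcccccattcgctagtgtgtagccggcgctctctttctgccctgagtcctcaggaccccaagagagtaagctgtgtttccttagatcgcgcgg
Robo4: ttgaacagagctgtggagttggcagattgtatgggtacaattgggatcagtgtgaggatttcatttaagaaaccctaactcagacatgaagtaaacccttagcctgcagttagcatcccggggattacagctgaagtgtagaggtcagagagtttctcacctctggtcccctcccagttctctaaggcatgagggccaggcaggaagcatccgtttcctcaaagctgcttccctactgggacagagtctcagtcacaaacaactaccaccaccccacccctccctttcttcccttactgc
Eng: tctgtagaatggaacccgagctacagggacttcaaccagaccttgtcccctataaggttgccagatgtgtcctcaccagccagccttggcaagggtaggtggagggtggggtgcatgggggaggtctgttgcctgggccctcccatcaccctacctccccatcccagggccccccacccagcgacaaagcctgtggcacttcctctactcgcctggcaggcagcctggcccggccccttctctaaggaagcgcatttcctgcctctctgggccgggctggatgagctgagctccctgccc
The motif searched was CCGGAA on both strands, and the Kdr window holds it once, on the opposite strand, at bases 98 to 103 of the window. Neither the Robo4 nor the Eng window holds those 6 letters. The shorter ETS core GGAA was not counted. RefSeq windows were matched for 14 of the 31 genes, 20 windows in all, and 1 of these 20 (5.0%) holds the motif, against 14.9% of 32851 windows over all genes.

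All 3 SOX F factors, which act in arterial and lymphatic fate and vessel growth, rose in adult CM against neonatal CF. Sox17 measured 9.03 and 9.89 in adult CM and 3.50 and 5.82 in neonatal CF, a 27.8-fold rise (adjusted p = 0.0266). Sox7 measured 9.03 and 9.64 in adult CM against 5.25 and 6.25 in neonatal CF, a 12.0-fold rise (adjusted p = 0.0141), and Sox18 8.35 and 9.24 in adult CM against 5.21 and 5.86 in neonatal CF, a 9.55-fold rise (0.0342). On these probe sets no adult value of the 3 reached down to a CF value. The other probe set gave a smaller difference for Sox17 (3.11) and for Sox7 (0.81), and on that of Sox7 the groups overlapped. Erg, an ETS factor that maintains endothelial identity, measured 6.89 and 8.12 in adult CM and 4.97 and 6.40 in neonatal CF (adjusted p = 0.101). Tal1, a factor of blood and endothelial precursors, measured 5.31 and 7.44 in adult CM against 6.44 and 6.45 in neonatal CF, and its adult arrays lay on either side of the CF pair.

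By role, the secreted and lipid-handling genes had the highest median difference, 4.29, against 3.26 for transcription factors, 2.68 for junctions, 2.17 for receptors and 0.28 for surface and caveolar genes. Rgcc, a regulator of the cell cycle that vessels and other tissues use, measured 10.78 and 10.75 in adult CM and 3.35 and 4.27 in neonatal CF, and rose 124-fold (log2 difference 6.95 ± 1.32 SE, adjusted p = 0.0244). Its other probe set measured 8.19 and 10.31 in adult CM against 4.55 and 5.00 in neonatal CF. Gpihbp1, which carries lipoprotein lipase to the capillary lumen, measured 9.30 and 10.65 in adult CM and 5.00 and 5.54 in neonatal CF, and rose 26.0-fold (adjusted p = 0.0335). Mmrn2, a matrix protein of the vessel wall, measured 8.74 and 9.81 in adult CM against 5.44 and 7.37 in neonatal CF and rose 7.32-fold (adjusted p = 0.0479). Fabp4, a fatty acid binding protein of capillary endothelium and fat cells, measured 12.29 and 12.75 in adult CM and 6.79 and 8.02 in neonatal CF (34.7-fold, adjusted p = 0.0651). The 4 fat cell markers measured had medians of 3.93 and 3.86 in adult CM and 3.69 and 3.53 in neonatal CF, near the low end of the arrays. Vwf, the clotting factor stored by endothelial cells and platelets, measured 8.35 and 8.35 in adult CM against 4.74 and 4.22 in neonatal CF (14.6-fold, adjusted p = 0.0780). Ppbp, a platelet gene, rose by 3.22 in this comparison, alone among 8 erythroid and platelet markers, and its part in the Vwf difference was not tested. Egfl7, a secreted factor of vessel growth, measured 8.28 and 9.60 in adult CM against 6.89 and 8.59 in neonatal CF, and the groups overlapped.

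None of the 6 surface and caveolar genes passed the threshold. Of these, 3 had higher means in adult CM and 3 lower, with 0 at an unadjusted p under 0.05 in limma. Plvap, which forms the diaphragms of fenestrae and caveolae, measured 6.90 and 7.33 in adult CM and 7.64 and 8.74 in neonatal CF. Ecscr, an endothelial surface protein of cell migration, measured 6.67 and 8.44 in adult CM against 8.45 and 9.77 in neonatal CF. Emcn, a sialomucin of veins and capillaries, measured 8.57 and 9.64 in adult CM against 7.99 and 10.59 in neonatal CF. Neither Plvap nor Ecscr overlapped between the groups, whereas Emcn did. Cav1, the caveolar coat gene that fibroblasts also use, measured 11.15 and 12.17 in adult CM against 10.97 and 10.85 in neonatal CF. Clec14a, a lectin that binds Mmrn2, measured 6.18 and 7.63 in adult CM against 4.31 and 5.38 in neonatal CF (adjusted p = 0.144), and Lyve1, the hyaluronan receptor of lymph vessels and some macrophages, 7.81 and 7.65 in adult CM against 4.45 and 6.67 in neonatal CF (0.307).

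Markers of other cells also differed in this comparison, in both directions. Of 12 cardiomyocyte markers 9 rose in adult CM against neonatal CF (Myh6, Actc1, Myl3, Ryr2, Pln, Actn2, Ttn, Mybpc3 and Ckm). Of 12 fibroblast markers 7 fell (Col1a1, Col1a2, Col3a1, Tcf21, Postn, Thy1 and Fbln2), and of 8 epicardial markers 3 fell (Lrrn4, Aldh1a2 and Tbx18). The 15 leukocyte markers had medians of 6.75 and 8.25 in adult CM against 11.49 and 8.41 in neonatal CF, with 2 that rose (Cd163 and F13a1) and 1 that fell (Cd68). Of 12 pericyte and smooth muscle markers 4 rose (Kcnj8, Abcc9, Myh11 and Des) and 2 fell (Pdgfrb and Acta2). Of the 4, Des and Abcc9 were high in neonatal CM too, as the cardiomyocyte markers were. Des measured 11.44 and 10.70 in neonatal CM against 7.90 and 7.74 in neonatal CF, and Abcc9 11.29 and 9.66 against 3.63 and 6.87. The part of these other cells in the endothelial differences was not tested. The 10 calls were all lost without adult CM replicate 1, without adult CM replicate 2 and without neonatal CF replicate 1. They were also lost with the groups the titles give, and no other of the 31 was called in their place. In these settings 0, 350, 1083 and 137 of all genes were called, against 3829 with all arrays. Without neonatal CF replicate 2, 6 were called, 4 of them among the 10 (1941 of all genes), and without both neonatal replicate 1 arrays 4 were, 2 of them among the 10 (717).

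Adult and neonatal cardiomyocyte preparations were compared next. None of the 31 transcripts passed the threshold in limma (0 higher and 0 lower), where 2.30% of all genes did (1.08% higher and 1.22% lower). At an unadjusted p under 0.05 stood 5 of the 31, against 22.8% of all genes. A higher mean in adult CM was found for 22 of the 31, against 57.4% of all genes, and the median difference was 0.54, against 0.09 over all genes. The arrays of the groups did not overlap for 8 higher genes and 2 lower ones, where 33.9% and 23.8% of all genes did the same.

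The 5 with an unadjusted p under 0.05 were Rgcc, Gpihbp1, Flt1, Sox7 and Plvap. Rgcc measured 10.78 and 10.75 in adult CM and 7.90 and 3.79 in neonatal CM, a difference of 4.92 ± 1.32 (SE, adjusted p = 0.125). Gpihbp1 measured 9.30 and 10.65 in adult CM and 8.35 and 5.47 in neonatal CM, a difference of 3.06 (adjusted p = 0.171). In both genes the adult arrays lay above both neonatal ones, which were themselves far apart. Flt1 measured 9.27 and 9.73 in adult CM and 8.14 and 7.91 in neonatal CM, a tighter separation (1.47 ± 0.46 SE, adjusted p = 0.158), and its 4 probe sets all had that sign. Sox7 measured 9.03 and 9.64 in adult CM against 8.45 and 7.35 in neonatal CM (1.43, adjusted p = 0.198). Plvap was the one of the 5 that was lower in adult CM, at 6.90 and 7.33 in adult CM against 8.21 and 9.64 in neonatal CM (−1.81, 95% interval −3.33 to −0.30, adjusted p = 0.169).

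By role, 5 of 6 surface and caveolar genes had a lower mean in adult CM, with a median of −0.73. All 6 secreted and lipid-handling genes had a higher one, with a median of 2.32. The other 3 roles lay between, with medians of 0.45 for junctions, 0.80 for receptors and 1.37 for transcription factors. Pecam1 averaged 8.28 ± 0.13 in adult CM and 8.12 ± 1.06 in neonatal CM, and the 95% interval of the difference ran from −1.10 to 1.42. Cdh5 averaged 8.85 ± 0.89 in adult CM and 8.66 ± 0.04 in neonatal CM, where its other probe set measured 6.07 and 4.71. The interval of its difference ran from −2.18 to 2.56. Clec14a, Egfl7 and Ramp2 likewise differed by −0.05, 0.08 and 0.09, with intervals that reached at least 1.68 below and 1.83 above 0. Leukocyte markers had higher means in adult CM for 14 of 15 (Cd163 and F13a1 rose), the platelet gene Ppbp rose by 3.27, and epicardial markers had lower means for 8 of 8 (Tbx18 fell). Lyve1 is shared with macrophages and Vwf with platelets, and the part of these cells was not tested. Without neonatal CM replicate 1, Rgcc and Vwf were called (163 of all genes), and the median difference became 1.01. Without neonatal CM replicate 2 it became 0.07, and without adult CM replicate 1 and replicate 2 it was 1.13 and 0.20.

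**Figure D4:**
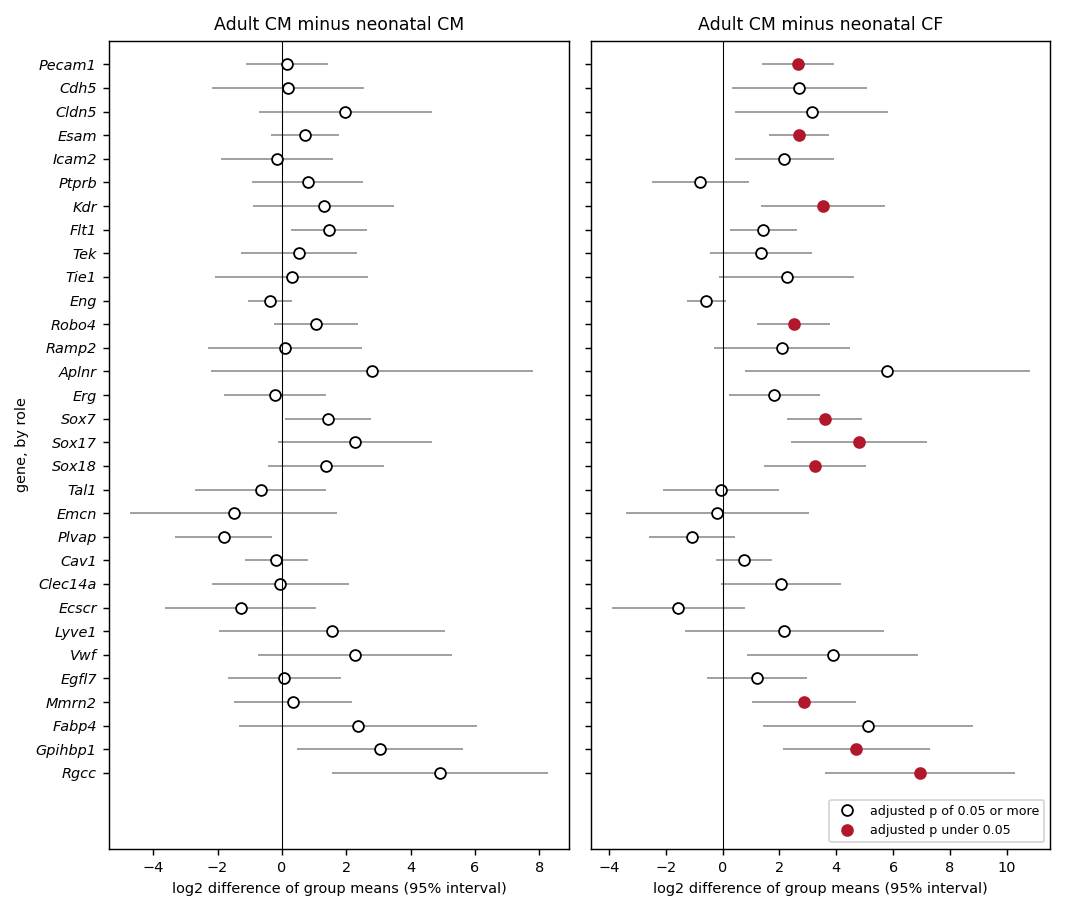
Log2 difference of group means (horizontal axis, with its 95% interval from limma) for each of the 31 transcripts (rows, by role), adult CM minus neonatal CM on the left and adult CM minus neonatal CF on the right. Filled points mark an adjusted p under 0.05, 0 on the left and 10 on the right, and both panels share the adult arrays.

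Neonatal cardiomyocytes and neonatal fibroblasts, which carry the same age and isolation labels, were also compared. None of the 31 passed the threshold in limma (0 higher and 0 lower), where 0.819% of all genes did (0.676% higher and 0.143% lower). At an unadjusted p under 0.05 stood 11 of the 31, against 16.3% of all genes. Of the 31, 27 had a higher mean in neonatal CM, where 47.4% of all genes did, and the median difference was 1.88, against −0.02 over all genes. The groups did not overlap for 15 higher genes and for 1 lower gene, Ptprb, against 22.3% and 23.2% of all genes. Cardiomyocyte markers had higher means in neonatal CM for 12 of 12 (median 4.67), fibroblast markers lower means for 12 of 12 (median −2.24, Tcf21 fell) and leukocyte markers lower means for 13 of 15 (median −3.83). Their part in the endothelial differences was not tested.

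Pecam1 had the smallest p of the 31, at 8.88 and 7.37 in neonatal CM and 5.57 and 5.69 in neonatal CF (2.50 ± 0.50 SE, adjusted p = 0.0944). Esam measured 9.03 and 8.64 in neonatal CM against 6.59 and 7.12 in neonatal CF (1.97, adjusted p = 0.102). Sox7 measured 8.45 and 7.35 in neonatal CM against 5.25 and 6.25 in neonatal CF (2.15, adjusted p = 0.137). Mmrn2 measured 9.21 and 8.67 in neonatal CM against 5.44 and 7.37 in neonatal CF (2.53, adjusted p = 0.184), and Icam2 9.00 and 8.07 in neonatal CM against 5.60 and 6.83 in neonatal CF (2.32, 0.197). These 5 were above CF on both neonatal CM arrays. Cdh5 also was, at 8.69 and 8.63 in neonatal CM against 4.81 and 7.48 in neonatal CF, and Erg, at 7.47 and 7.95 in neonatal CM against 4.97 and 6.40 in neonatal CF. Ptprb measured 8.63 and 10.24 in neonatal CM and 10.61 and 11.43 in neonatal CF, a difference of −1.59 (adjusted p = 0.341) that all 3 of its probe sets shared in sign. Without neonatal CM replicate 2, 5 genes were called (Aplnr, Fabp4, Pecam1, Rgcc and Vwf) and the median difference became 2.54, while 437 of all genes were called. Without neonatal CM replicate 1, no gene at all was called in limma, the 31 included, and the median difference of the 31 was 0.92. The comparisons share groups, so their differences are not independent of each other.

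The 2 arrays of a group differed widely in these transcripts, and not by a common shift. Between the neonatal CM arrays (replicate 2 minus replicate 1) the median difference of the 31 was −1.25, against 0.01 over all genes. Replicate 2 was lower for 24 of the 31, where 48.1% of all genes were. Over 1 log2 unit lower on replicate 2 were 17 of the 31, against 4.66% of all genes, and over 1 unit higher were 5, against 6.46%. Aplnr had the most negative difference of all 18193 genes, at 9.78 on replicate 1 and 3.64 on replicate 2. Its other probe set measured 6.73 and 4.65. Fabp4 measured 12.39 and 7.92 and ranked 8 from the bottom, with all 4 probe sets of that sign. Rgcc measured 7.90 and 3.79 (rank 14), Lyve1 8.08 and 4.27 (rank 20) and Vwf 7.95 and 4.21 (rank 21). On replicate 2 these 5 genes sat within or near the range of the fibroblast arrays, and on replicate 1, except for Rgcc, within 1 log2 unit of an adult array. All 5 are among the 8 listed as also expressed by other heart cells, and the part of those cells was not tested.

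The 5 genes that were over 1 unit higher on neonatal CM replicate 2 were Emcn, Ecscr, Ptprb, Plvap and Tal1. Emcn measured 9.16 on replicate 1 and 12.04 on replicate 2, and ranked 83 from the top of all genes. Ecscr measured 7.87 and 9.79, Ptprb 8.63 and 10.24, Plvap 8.21 and 9.64, and Tal1 6.35 and 7.70. The other genes lay between on their brightest probe sets, such as Cdh5 at 8.69 and 8.63, Egfl7 at 8.75 and 8.98, and Eng at 10.02 and 9.83. The other probe set was lower on replicate 2 for Cdh5 (6.07 and 4.71) and higher for Eng (8.55 and 9.49). All 4 probe sets of Egfl7 were higher on replicate 2. On neonatal CM replicate 1, 28 of the 31 values were nearer to the adult CM mean than to the CF mean, where 49.2% of all genes were. On replicate 2, 12 of the 31 were, against 33.3% of all genes. The others include genes that lay above both means. Emcn, Plvap, Ecscr and Tal1 were nearer to the CF mean but exceeded it by 2.76, 1.45, 0.68 and 1.26. Leukocyte markers moved too, with medians of 6.60 on replicate 1 and 5.01 on replicate 2. The 12 pericyte and smooth muscle markers had medians of 9.51 and 9.53, with 8 lower and 4 higher on replicate 2. Their differences ran from −4.53, in Rgs5 (10.88 and 6.35), to 2.99. Their part in the differences was not tested.

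In adult CM the pattern was a more even one. Replicate 2 was higher for 27 of the 31 genes and by over 1 log2 unit for 17, against 51.4% and 5.17% of all genes, with a median difference of 1.03. Over 1 unit lower were 0 of the 31, against 1.28% of all genes. The largest of these differences were in Tal1 (5.31 and 7.44), Cldn5 (7.67 and 9.47) and Ecscr (6.67 and 8.44). Tie1 was the clearest exception, at 7.53 and 6.58, and Rgcc, Vwf and Eng differed by less than 0.1 on their brightest probe sets. The other probe set was higher on replicate 2 for Rgcc (8.19 and 10.31) and for Eng (8.03 and 9.04). On the same arrays fibroblast markers had a median difference of 1.87, leukocyte markers 1.46 and pericyte and smooth muscle markers 0.90, whereas cardiomyocyte markers differed by −0.03, and their part was not tested.

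The fibroblast arrays also differed upwards. Replicate 2 was higher for 27 of the 31, against 53.8% of all genes, and by over 1 unit for 14, against 4.57%, with a median difference of 0.91. Over 1 unit lower were 0 of the 31, against 5.07%. Cdh5 measured 4.81 on replicate 1 and 7.48 on replicate 2, a difference that its other probe set did not share (−0.04). Emcn measured 7.99 and 10.59, Sox17 3.50 and 5.82, Lyve1 4.45 and 6.67, and Ramp2 5.45 and 7.66. Aplnr, at 3.60 and 3.85, Vwf, at 4.74 and 4.22, Tie1, at 4.86 and 4.75, and Pecam1, at 5.57 and 5.69, were low on both arrays. Cardiomyocyte markers were higher on replicate 2 in 12 of 12 cases, with a median difference of 2.64, and leukocyte markers lower, with −3.18, and their part was not tested.

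**Figure D5:**
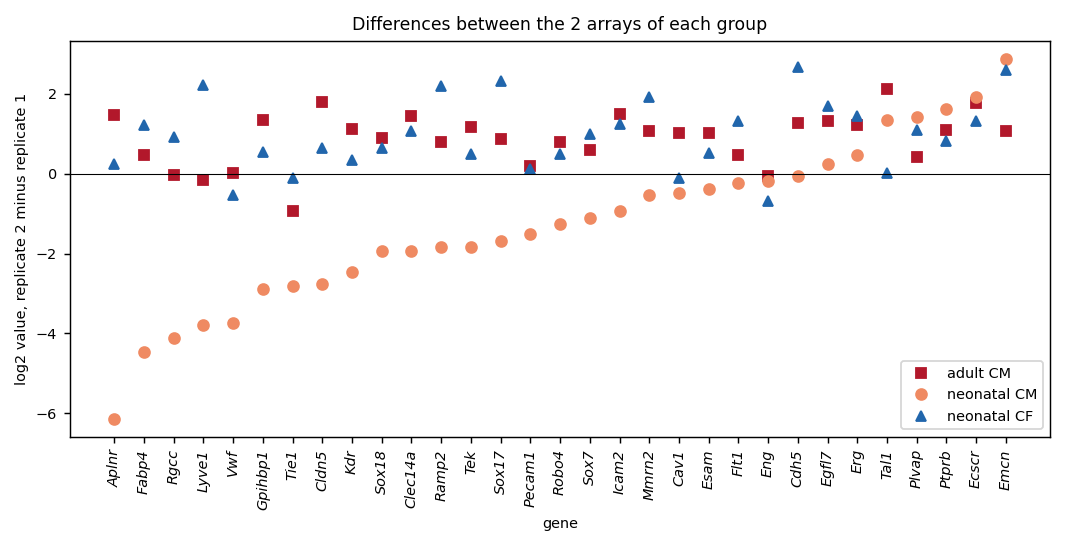
Log2 value of replicate 2 minus replicate 1 (vertical axis) for each of the 31 transcripts (horizontal axis, ordered by the neonatal CM difference) within adult CM (squares), neonatal CM (circles) and neonatal CF (triangles). The neonatal CM differences ran from −6.14 in Aplnr to 2.88 in Emcn, while 27 of 31 genes lay above 0 in adult CM and 27 of 31 in neonatal CF.

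Other genes of vessel subtypes were taken from lists. All 12 capillary genes measured had higher means in adult CM than in neonatal CF, with a median difference of 3.25, and 8 rose: Car4, Cd36, Aqp1, Kcnj8, Timp4, Aqp7, Lpl and Tcf15. Cd36 and Lpl are also made by cardiomyocytes, and Kcnj8 by pericytes. Aqp1, a water channel of capillaries, measured 11.18 and 11.84 in adult CM and 6.13 and 7.34 in neonatal CF (27.4-fold, adjusted p = 0.00822). Car4, a carbonic anhydrase on the capillary surface, measured 7.02 and 7.96 in adult CM against 4.56 and 4.55 in neonatal CF (7.63-fold, adjusted p = 0.0168). All 12 also had higher means in adult CM than in neonatal CM, with a median of 1.80, and Timp4, an inhibitor of matrix metalloproteinases, rose (9.18 and 9.66 in adult CM against 5.54 and 3.58 in neonatal CM). The capillary median was 8.15 and 9.33 in adult CM, 7.39 and 4.90 in neonatal CM, and 4.90 and 4.88 in neonatal CF. Between neonatal CM and neonatal CF 0 of the 12 were called in limma, with 3 at an unadjusted p under 0.05, and Cd36 (2.83) and Aqp1 (2.43) differed most.

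The remaining vessel lists differed less evenly in adult CM against neonatal CF. Of 12 arterial genes, Dll4, a Notch ligand of arteries and sprouting tips, rose by 1.97 and Unc5b, a netrin receptor, fell by 3.55, with a median of 0.10. Of 6 venous genes 5 had lower means (median −1.04) and Vcam1, a leukocyte adhesion molecule that fibroblasts also make, fell by 3.12. Of 10 endocardial genes, which include Vwf and Plvap, Cytl1 rose by 2.87 and Tmem108 fell by 2.68 (median −0.43). Of 6 lymphatic genes 5 had higher means (median 1.01), and Prox1, the lymphatic master factor that cardiomyocytes also use, rose by 3.52. Pdpn, the surface protein podoplanin that fibroblasts also make, fell by 4.35. In adult CM against neonatal CM 0 genes of these 4 lists were called in limma, with 1 arterial, 1 venous, 5 endocardial and 1 lymphatic gene at an unadjusted p under 0.05. The widest of their differences were −2.39 for Hey2 and 2.17 for Sema3g (arterial), −2.29 for Vcam1 and −0.68 for Nr2f2 (venous), −2.24 for Tmem108 (endocardial, beside Vwf) and −1.74 for Pdpn (lymphatic, beside Lyve1). In neonatal CM against neonatal CF 0 were called as well, with 1, 0, 1 and 3 at an unadjusted p under 0.05. There the widest were 2.32 for Hey2, −1.84 for Unc5b, −1.39 for Nrp2, −0.83 for Vcam1, 1.60 for Vwf and 1.35 for Cgnl1 (endocardial), 3.23 for Prox1 and −2.61 for Pdpn. Hey2 measured 9.83 and 6.02 in neonatal CM, 5.02 and 6.05 in adult CM, and 5.23 and 5.97 in neonatal CF. Both of its differences thus rested on neonatal CM replicate 1.

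Of 40 further endothelial genes, 11 rose and 2 fell in adult CM against neonatal CF, with a median of 1.23. The shear-responsive factor Klf2 measured 11.44 and 12.27 in adult CM and 8.60 and 9.56 in neonatal CF (6.85-fold, adjusted p = 0.0193). In neonatal CM it measured 9.32 and 8.63, a difference of 2.88 from adult CM (adjusted p = 0.0566). Adgrl4, an adhesion receptor of endothelial cells, measured 9.09 and 10.17 in adult CM against 4.61 and 6.62 in neonatal CF (16.1-fold, adjusted p = 0.0220). Klf4, Tcf15, Mef2c, Arhgef15, Adgrf5, Palmd, Podxl, She and Notch4 also rose, by 1.26 (Mef2c) to 3.87 (Podxl). Mef2c was high in both cardiomyocyte groups, at 10.11 and 10.39 in adult CM and 10.52 and 10.14 in neonatal CM. In neonatal CF it measured 9.17 and 8.82. Acvrl1 fell by 1.34, and Unc5b, also on the arterial list, fell too. Tcf15 stands on the capillary list as well. None of the 40 was called in limma between adult and neonatal CM (6 at unadjusted p under 0.05), where Klf2 and Procr (−2.49) differed most. None was called between neonatal CM and neonatal CF (13), where Podxl (2.76) and She (2.38) did.

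Ligands for the receptors above differed in both directions. Of 18 ligand genes 3 rose and 4 fell in adult CM against neonatal CF, with a median of −0.33. Vegfb, a ligand of Flt1, measured 11.34 and 11.60 in adult CM, 10.28 and 9.47 in neonatal CM, and 7.94 and 7.76 in neonatal CF (12.3-fold between adult CM and neonatal CF, adjusted p = 0.00655). Angpt1, the activating ligand of Tek, measured 9.19 and 9.99 in adult CM, 10.38 and 8.79 in neonatal CM, and 5.15 and 5.78 in neonatal CF, and rose 17.4-fold (adjusted p = 0.0144). Its difference of 4.12 between neonatal CM and neonatal CF had an adjusted p of 0.0619. Slit2, a guidance ligand of the roundabout family, measured 5.09 and 6.38 in adult CM and 10.53 and 10.35 in neonatal CF, and fell by 4.70. Vegfd and Vegfc, ligands of the lymphatic VEGF receptor, fell by 4.87 and 2.22. Adm, which signals through the Ramp2 receptor complex, measured 7.23 and 7.73 in adult CM against 11.47 and 12.01 in neonatal CF and fell by 4.26. None of the 18 was called in limma between adult and neonatal CM (5 at unadjusted p under 0.05, widest Slit2 at −2.41 and Edn1 at −2.00) or between neonatal CM and neonatal CF (6, with Vegfd at −3.56 beside Angpt1). Dll4 is the third ligand that rose, as given with the arterial genes.

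Probe sets of one gene were compared where several existed. In adult CM minus neonatal CF all probe sets had one sign for 14 of the 14 genes concerned. In adult CM minus neonatal CM and in neonatal CM minus neonatal CF this held for 11 of 14 each. The exceptions were Egfl7, Erg and Ptprb in adult CM minus neonatal CM. In neonatal CM minus neonatal CF they were Eng, Flt1 and Sox7, whose Sox7 probe sets gave 2.15 and −0.02. Between the arrays of a group signs were mixed for 6 of 14 genes in adult CM and for 4 of 14 in each neonatal group.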

How the data were processed

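The deposited table holds log2 expression values for 45101 probe sets on 6 Affymetrix arrays, made by the authors with RMA, per the submitters' processing notes. That method subtracts background, aligns the arrays by quantiles and combines the probes of a set. Neither its version nor joint processing of the arrays is stated there. RMA compresses differences near the floor and the top, and gives no detection call. Precision is limited by having 6 arrays. The platform annotation named 34945 probe sets to 1 gene, 932 to several and 9160 to none, and 64 were controls. Each of the resulting 18193 genes was represented by its brightest probe set on average.

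A linear model with 3 group means was fitted to all 6 arrays (lmFit and eBayes, limma 3.58.1, R 4.3.3), leaving 3 residual and 2.18 prior degrees of freedom. Tests were two-sided, with Benjamini-Hochberg adjustment over all 18193 genes and a threshold of 0.05. Rose and fell are kept for genes past it. The fit was tested on simulated data. Alternatives were a replicate block, each array left out, the titles' groups, other probe set rules, a filter on dim genes, quantile normalization and a variance trend. For the medians, the 8 genes listed as also expressed by other heart cells were left out as well. The 31 genes and all lists were chosen with earlier results of these data known. Every one of the 31 is named. From the other lists, called genes are named, or else those with the largest difference, and Rgs5 was chosen after its values were seen.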

Additional observations from a re-analysis of the deposited data

How the results depend on the processing

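The calls rest on few arrays. Leaving out each array in turn gave 0 to 14 called transcripts in adult CM minus neonatal CF (10 with all arrays), 0 to 2 in adult CM minus neonatal CM (0) and 0 to 5 in neonatal CM minus neonatal CF (0), with median differences of 1.55 to 2.78, 0.07 to 1.13 and 0.92 to 2.54 in the same order. In the same order 0 to 3823, 0 to 164 and 0 to 437 of all genes were called (3829, 418 and 149 with all arrays), so several of these zeros hold for the whole array set. A group left with 1 array is assumed to vary like the others. With the groups that the titles give, the medians were 0.76, 1.95 and −1.16, and 0 were called in the first comparison. Without both neonatal replicate 1 arrays 4 were called in the first, and the median of the third was 0.56. With every probe set tested by itself 16 of 54 were called in the first, where 5718 of all 34945 probe sets were. The median of the third was then 1.09. For these settings the cause was not tested. Replicate numbers are shared by the titles of all groups. Deviations of same-numbered arrays correlated across 18193 genes at 0.27 between adult and neonatal CM, 0.21 between adult CM and CF and 0.18 between neonatal CM and CF, but the labels state no shared litter or day. With the replicate block 11, 0 and 0 transcripts were called in the same order, where 4811, 607 and 0 of all genes were. In the first these were 9 of the 10 (without Kdr), Erg, and Ecscr, which was lower in adult CM. The mean of all probe sets, the filter on dim genes, quantile normalization and the variance trend gave 10 to 12 calls in the first comparison and 0 in the others. Of all genes tested, 3335 to 3868 were called in the first, 354 to 465 in the second and 59 to 384 in the third. Each of these 4 kept all 10. The median difference of the 31 between the arrays of a group moved by less than 0.76 under every alternative run for it. That value is the SD of the median of the 31 between arrays of a group. It is built from the same array differences, so staying under it cannot show that they are stable. Single genes moved more with the probe set, such as Aplnr (−6.14 and −2.08) and Fabp4 (−4.47 on the brightest and −1.43 on the least different) between neonatal CM arrays, and Cdh5 (2.67 and −0.04) between CF arrays.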
